A study of Homo sapiens with 8 samples.

Results

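The major histocompatibility complex (MHC) of human chromosome 6, band 6p21, was described here in ATAC-seq peak lists from 8 chromatin fractions of 293T cells. Its members are the peaks that lie wholly between 29500000 and 33400000 of chromosome 6 in the hg19 build, a stretch of 3.9 Mb chosen by position alone. The 8 lists held 557 such peaks of 119972 in all. Peaks of different lists that shared at least 1 bp were joined, which gave 137 regions of the 36845 in the series. The stretch was divided by position into a class I interval (29.5 to 31.5 Mb, 64 regions), a class III interval (31.5 to 32.1 Mb, 28 regions) and a class II interval (32.1 to 33.4 Mb, 45 regions). These names stand for the position ranges and not for gene borders, so genes usually counted as class III may lie in the class II interval, near its start. Coordinates are counted from 1.

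The MHC is a gene-dense segment named for the cell-surface proteins that show peptides to T cells. Class I molecules such as HLA-B and HLA-C are made by nearly all nucleated cells and present peptides from inside the cell, whereas class II molecules such as HLA-DR, HLA-DQ and HLA-DP are made mainly by professional antigen-presenting cells. The class III segment between them carries no peptide-presenting genes but many others, among them complement components, cytokines of the tumour necrosis factor family, heat shock genes and genes for RNA and chromatin proteins. In the order of the RefSeq gene table (GRCh38.p14), GABBR1, HLA-F, HLA-G, HLA-E, HLA-C, HLA-B, MICA and MICB come in this order on the class I side. LTA, TNF, BAG6, HSPA1A, C2, CFB, EHMT2 and NOTCH4 stand among the genes after them. HLA-DRA opens the class II genes and HLA-DPB1 closes them, with 16 protein-coding genes between, including the peptide transporters TAP1 and TAP2, the proteasome subunits PSMB8 and PSMB9 and the bromodomain gene BRD2. Beyond HLA-DPB1 come genes of general cell use such as RING1, RXRB, DAXX and KIFC1. That table is of another build than the peaks, so no region below was assigned to a gene, and the regions are named by position.

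In ATAC-seq a transposase cuts open DNA and leaves sequencing adapters at the cuts. The cells, a human embryonic kidney line with the SV40 large T antigen, had been crosslinked, permeabilised and tagmented before the material was bound to Q Sepharose, a strong anion exchanger. The 8 libraries are the unbound flow-through (FT) and the eluates of successive washes with 20, 100, 200, 300, 500, 700 and 1000 mM NaCl (G20, G100, G200, G300, G500, G700 and G1000). All fractions came from the same cell line with no other treatment in the labels, and each had 1 library. With 1 library a fraction, tests below speak of libraries, without a replicate check, and not of conditions. Because the name G50_200 is given to all peaks of the G200 list, it was not settled whether that list is the 200 mM wash alone. The cell label was not checked against marker genes.

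Depth differed between the lists, and its part in the number of calls was not tested. The genome background that the peak caller used, recovered from the peak statistics as reads per extended-read window, was 0.662 in FT and 0.420 in G20, 0.320 in G100 and 0.239 in G200, 0.497 in G300 and 0.279 in G500, and 0.248 in G700 and 0.291 in G1000. List length largely followed the background, except in G200. It was 22807 peaks in FT, 19717 in G300, 19484 in G20 and 13244 in G100. G1000 had 10246 peaks, G500 had 10384 and G700, with the next to lowest background, had 8102. G200, with the lowest background, had 15988. Peaks on alternative MHC haplotype sequences numbered 0, so the interval was represented by the chromosome 6 assembly alone in these files. How reads that map to several places were handled is not given in the sources used here, which matters for HLA genes of similar sequence.

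Called regions were denser over the MHC than over the rest of the chromosome. The interval held 35.1 regions per Mb, against 15.0 per Mb over the remaining 167 Mb between the first and last peak of chromosome 6, a span that includes the centromere. Regions covered 2.36% of the bases of the interval and 0.915% of the rest. The class III interval was the densest of the 3, with 46.7 regions per Mb and 3.52% of its bases covered. The class I interval had 32 regions per Mb and 2.07% covered, and the class II interval had 34.6 per Mb and 2.28% covered. The median stretch between neighbouring regions was 18.4 kb in the interval and 32.1 kb on the rest of chromosome 6.

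**Figure D1:**
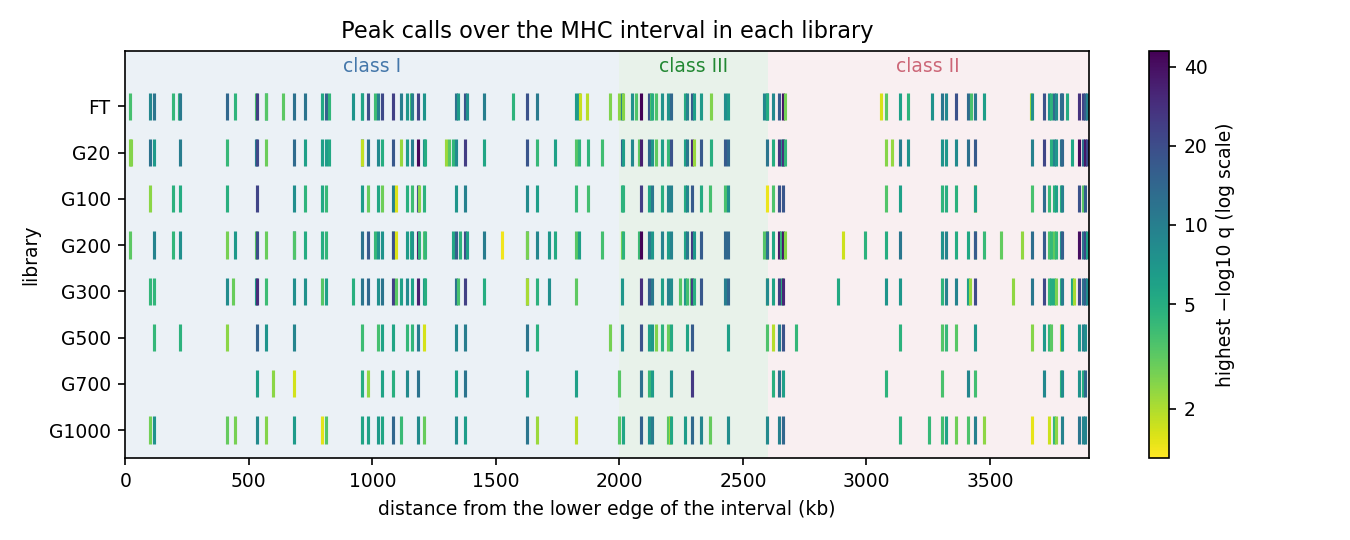
Peak calls of each library (rows) against distance from the lower edge of the MHC interval (kb), 1 mark per region, coloured by the highest −log10 q of the library's peaks there on a log scale. Calls crowd into parts of each class interval. Among these are 1000 to 1200 kb in class I, 2000 to 2300 kb in class III, and 2600 to 2700 and 3700 to 3900 kb in class II. The number of peaks ranges from 100 in FT to 32 in G700.

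All 8 fractions gave peaks in the interval. FT had 100 peaks, G20 had 85, G100 had 63, G200 had 93, G300 had 80, G500 had 49, G700 had 32 and G1000 had 55. As a share of its list, this was 0.438% in FT (95% Clopper-Pearson interval 0.357 to 0.533), 0.436% in G20 (0.349 to 0.539), 0.476% in G100 (0.366 to 0.608) and 0.582% in G200 (0.470 to 0.712). It was 0.406% in G300 (0.322 to 0.505), 0.472% in G500 (0.349 to 0.623), 0.395% in G700 (0.270 to 0.557) and 0.537% in G1000 (0.405 to 0.698). The interval of each list overlapped those of the other 7, and these intervals cover counting error only. G200 had the highest share and the lowest background, and the part of depth in the shares was not tested. On the rest of chromosome 6, G200 had the lowest share of the 8 lists, 6.29%, and G1000 the highest, 7.32%.

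The class III interval gave 24 peaks in FT and 20 in G20, 16 in G100 and 19 in G200, 19 in G300 and 12 in G500, and 5 in G700 and 13 in G1000. All 5 class III regions called in G700 were called in every other list too. The same was true of 68.8% of the G700 regions of the whole MHC and of 52.6% over the series. In the class II interval there were 30 peaks in FT and 26 in G20, 20 in G100 and 30 in G200, 28 in G300 and 18 in G500, and 13 in G700 and 18 in G1000. The class I interval had 46 peaks in FT and 39 in G20, 27 in G100 and 44 in G200, 33 in G300 and 19 in G500, and 14 in G700 and 24 in G1000. FT and G200 therefore called the same number of class II peaks, which was 0.132% of the FT list and 0.188% of the G200 list. G700, the shortest list, called the fewest in each of the 3 intervals. As shares of its list these were 0.173% in class I, 0.0617% in class III and 0.160% in class II. In FT the shares were 0.202% in class I, 0.105% in class III and 0.132% in class II.

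Regions were laid out unevenly inside the intervals. In the class II interval the 200 kb at the far end, 33200001 to 33400000, held 14 of the 45 regions, and all 8 lists called 4 of these. By contrast the 300 kb from 32200001 to 32500000 held 4 regions, each called in 1 list. The longest stretch without a region in the class II interval ran over 170 kb, from 32213025 to 32383398. The corresponding stretches were 189 kb in the class I interval, from 29721156 to 29909910, and 146 kb in the class III interval, from 31940602 to 32086724. A stretch without a call is a stretch below the caller's threshold at these depths, and was not shown to be closed. On all of chromosome 6, the stretch of the class I interval ranked 170 by length.

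**Figure D2:**
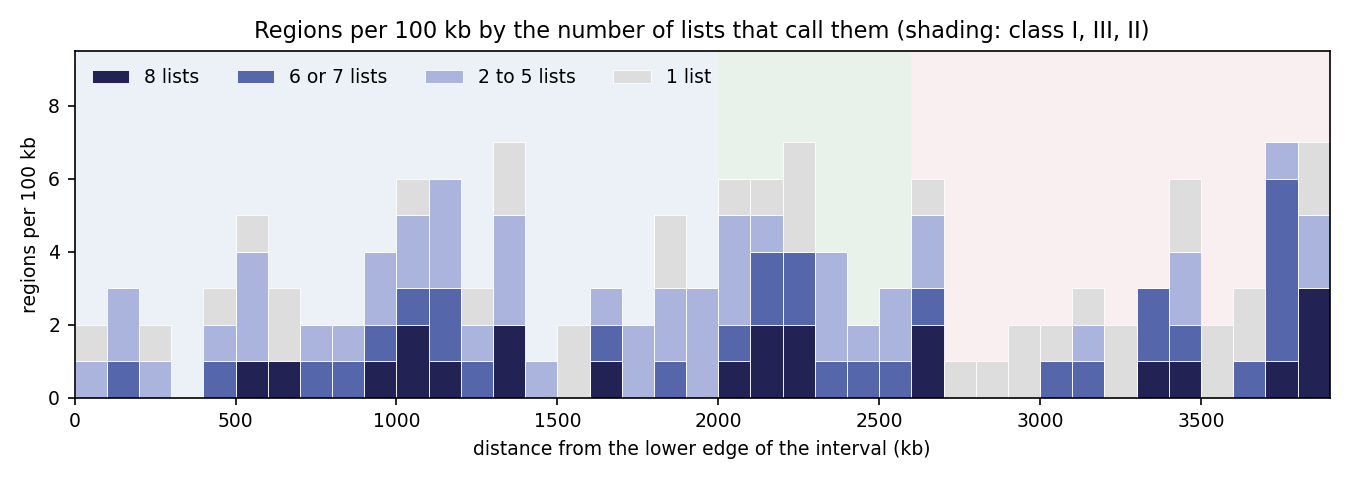
Regions per 100 kb against distance from the lower edge of the MHC interval (kb), stacked by the number of lists that call them. Bins at 3700 to 3900 kb hold 7 regions each, while the bins from 2700 to 3000 kb hold regions of 1 list alone.

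Regions of the MHC were shared between fractions more often than regions of the series at large. In all 8 lists there were 22 of the 137 (16.1%), where the share over all regions was 11.5%. In 6 or more lists there were 53 (38.7%), against 23.6% of all regions. A single list called 36 (26.3%), against 40.7% of all regions. The class III interval had 13 of 28 regions in 6 or more lists (46.4%), the class II interval 20 of 45 (44.4%) and the class I interval 20 of 64 (31.3%). In the class II interval 17 of 45 regions (37.8%) were in 1 list, close to the 40.7% of all regions. There 7 (15.6%) were in 7 lists and 8 (17.8%) in all 8, against 6.30% and 11.5% of all regions. These are counts with no test.

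**Figure D3:**
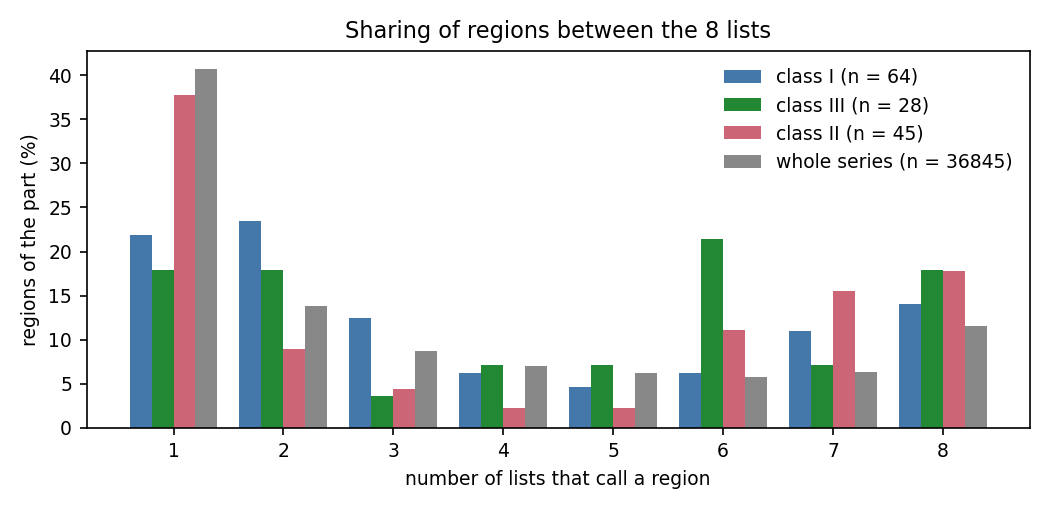
Percent of the regions of each class interval and of the whole series (bars) by the number of lists that call them. Class III regions in 1 list make up 17.9%, class II regions 37.8% and all regions of the series 40.7%.

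Regions called in few lists had low −log10 q values. The direction was partly fixed in advance, as the highest value is taken over more peaks where more lists call a region. A call is itself a threshold on q. The median over regions of the highest −log10 q, the authors' value, was 21.5 for the 22 regions of all 8 lists in the MHC, against 19.9 for such regions of the series. For the 36 regions of 1 list it was 3.19, against 2.98 in the series. Of the 36, FT called 12, G20 called 4, G100 called 0, G200 called 9, G300 called 7, G500 called 1, G700 called 1 and G1000 called 2. Of the 15013 such regions of the series, FT called 4360, G20 called 2694, G100 called 1023 and G200 called 2345. G300 called 3109 of them, G500 called 565, G700 called 349 and G1000 called 568. The strongest single-list regions were chr6:32764687-32765382 in the class II interval, with a −log10 q of 7.45 and 11 reads at its summit in FT, chr6:30853807-30854245 in the class I interval, with 4.67 and 10 reads in G200, and chr6:31628386-31628844 in the class III interval, with 3.59 and 13 reads in FT. Of the 16 regions called in 7 lists, 10 lacked a call in G700, 4 in G1000, 2 in G500 and 0 in any of the other 5 lists. Over the series G700 was the missing list for 1011 of 2320.

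Widths and summits of the shared regions were close to those of the series. The 22 regions of all 8 lists had a median merged width of 857 bp, against 938 bp over the 4241 such regions of the series. The summits of the 8 lists lay within a median of 230.5 bp of each other, against 231 bp in the series, and within 100 bp in 2 of the 22 regions (9.09%), against 7.24% in the series. The median width (bp) of single peaks at these 22 regions was 697 in FT and 650.5 in G20, 657.5 in G100 and 645 in G200, 684 in G300 and 606.5 in G500, and 428.5 in G700 and 495 in G1000. G700, the shortest list, also had the narrowest peaks there. It was the narrowest at such regions over the series too, with a median of 486 bp, against 802 bp in FT.

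The strongest regions of the interval are next described by the reads over their summits, whole numbers recovered from the deposited fold and p-value, and not scaled for depth. Fold enrichments at the 22 shared regions, the authors' values, had medians of 8.06 in FT and 8.87 in G20, 7.42 in G100 and 8.68 in G200, 8.48 in G300 and 6.75 in G500, and 6.73 in G700 and 7.38 in G1000.

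In the class III interval chr6:31587706-31588810, 1105 bp wide, had the best mean rank by −log10 q of the whole MHC. It had 62 reads in FT and 46 in G20, 34 in G100 and 59 in G200, 40 in G300 and 27 in G500, and 19 in G700 and 25 in G1000. Its −log10 q ran from 12.5 in G700 to 45.7 in FT, with 45.1 in G200. The next, chr6:31794765-31795763, had 40 reads in FT and 46 in G20, 30 in G100 and 44 in G200, 42 in G300 and 28 in G500, and 34 in G700 and 26 in G1000. Its summits lay within 81 bp of each other, and G700 had more reads there than at any other shared region of the interval. The third, chr6:31619707-31620947, was weaker, with 32 reads in FT and 21 in G20, 12 in G100 and 19 in G200, 24 in G300 and 12 in G500, and 8 in G700 and 13 in G1000.

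The best-ranked class II regions lay at both ends of that interval. At its near end, beside the class III interval, chr6:32162954-32163997 had 56 reads in FT and 40 in G20, 27 in G100 and 48 in G200, 43 in G300 and 27 in G500, and 11 in G700 and 21 in G1000, with summits within 71 bp, the closest of the 22. Before it, chr6:32145123-32146428 had 35 reads in FT and 43 in G20, 30 in G100 and 55 in G200, 41 in G300 and 22 in G500, and 21 in G700 and 20 in G1000. G200 was the highest library there. At the far end chr6:33358948-33359809 had 41 reads in FT and 50 in G20, 25 in G100 and 47 in G200, 29 in G300 and 12 in G500, and 14 in G700 and 18 in G1000. Its −log10 q was 42.8 in G20 and 40.4 in G200, against 6.90 in G500.

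Of the class I regions, chr6:30684860-30685596 ranked best, with 44 reads in FT and 60 in G20, 32 in G100 and 54 in G200, 50 in G300 and 23 in G500, and 20 in G700 and 18 in G1000. G20, G200 and G300 exceeded FT there, although FT had the highest background. Next came chr6:30034466-30035290, with 37 reads in FT and 30 in G20, 30 in G100 and 28 in G200, 39 in G300 and 21 in G500, and 10 in G700 and 13 in G1000. The third was chr6:30875515-30876231, where reads ran from 11 in G1000 to 32 in G20.

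The widest regions were not the strongest. In the class II interval chr6:32120847-32122479 spanned 1633 bp in 7 lists, with 18 reads in FT and 12 in G20, 8 in G100 and 12 in G200, 13 in G300 and 7 in G500, 8 in G700 and no call in G1000. Its summits lay up to 887 bp apart. In the class III interval chr6:31830384-31831913 spanned 1530 bp in 6 lists, with 17 reads in FT and 26 in G20, 12 in G100 and 24 in G200, 25 in G300 and 15 in G1000, and no call in G500 or G700. The widest class I region, chr6:30523907-30525422, spanned 1516 bp, was called in all lists but G700, and had summits up to 1042 bp apart.

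Calls on the low-salt side alone were few. Of the 137 regions, 2 (1.46%) had peaks in each of FT, G20 and G100 but no peak in G500, G700 or G1000, where the share over all regions was 3.1%, and 0 showed the reverse pattern, where it was 0.00543%. Both were also called in G200 and G300. In the class I interval chr6:30227024-30227750 had 19 reads in FT and 10 in G20, 8 each in G100 and G200, and 11 in G300. In the class III interval chr6:31926525-31927200 had 14 reads in FT and 19 in G20, 6 in G100 and 17 in G200, and 14 in G300. The background was higher in each of FT, G20 and G100 than in each of G500, G700 and G1000, and its part in these calls was not tested.

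Reads of the shared regions were then compared between libraries. Recovered reads were at hand in every library for all 22 regions of 8 lists, which had between 85 and 312 reads over the 8 together. Each library's reads at a region were tested against those of the remaining 7 by a two-sided exact binomial test, with expected shares from 4098 ordinary regions of the series and Benjamini-Hochberg adjustment over 33760 tests. Ordinary regions lie on placed chromosomes, away from chromosome ends and from the longest stretch without a region. Of the 22 regions, 1 (4.55%) passed an adjusted p of 0.05, where 2.49% of the 4220 regions tested did. With each library scaled to its genome background instead, 13 tests in 10 of the 22 regions passed, 10 of them in G200 and 3 in FT, while 1187 of the 4220 regions passed over the series. Unadjusted, 15 of the 176 tests (8.52%) had p under 0.05, against 5.55% of all tests, 11 of them higher and 4 lower in the library tested. G200 accounted for 6 of the 11, in 22 regions, where 5.95% of all tested regions had such a higher value in G200.

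The region that passed was chr6:32145123-32146428 in the class II interval, in G200, which was higher by this rule in 0.711% of all tested regions. G200 had 55 reads there, 1.65 times the 33.3 expected (95% Poisson interval 1.25 to 2.15; exact binomial test, adjusted p = 0.0339). Without FT the ratio of G200 was 1.58 and the adjusted p 0.0818 in the same exact binomial test, and the call was lost. Over ordinary regions the squared deviations of G200 from its expected reads averaged 2.49 times what counting gives, against 1.61 in FT and 0.766 to 0.968 in the other 6 libraries. The binomial test assumes a value of 1, and its p-values for G200 and FT are therefore too small. The next lowest p-values were also those of G200, at chr6:31587706-31588810 with 1.52 times the expected reads (adjusted p = 0.134, exact binomial test) and at chr6:33358948-33359809 with 1.60 times (adjusted p = 0.134, exact binomial test).

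**Figure D4:**
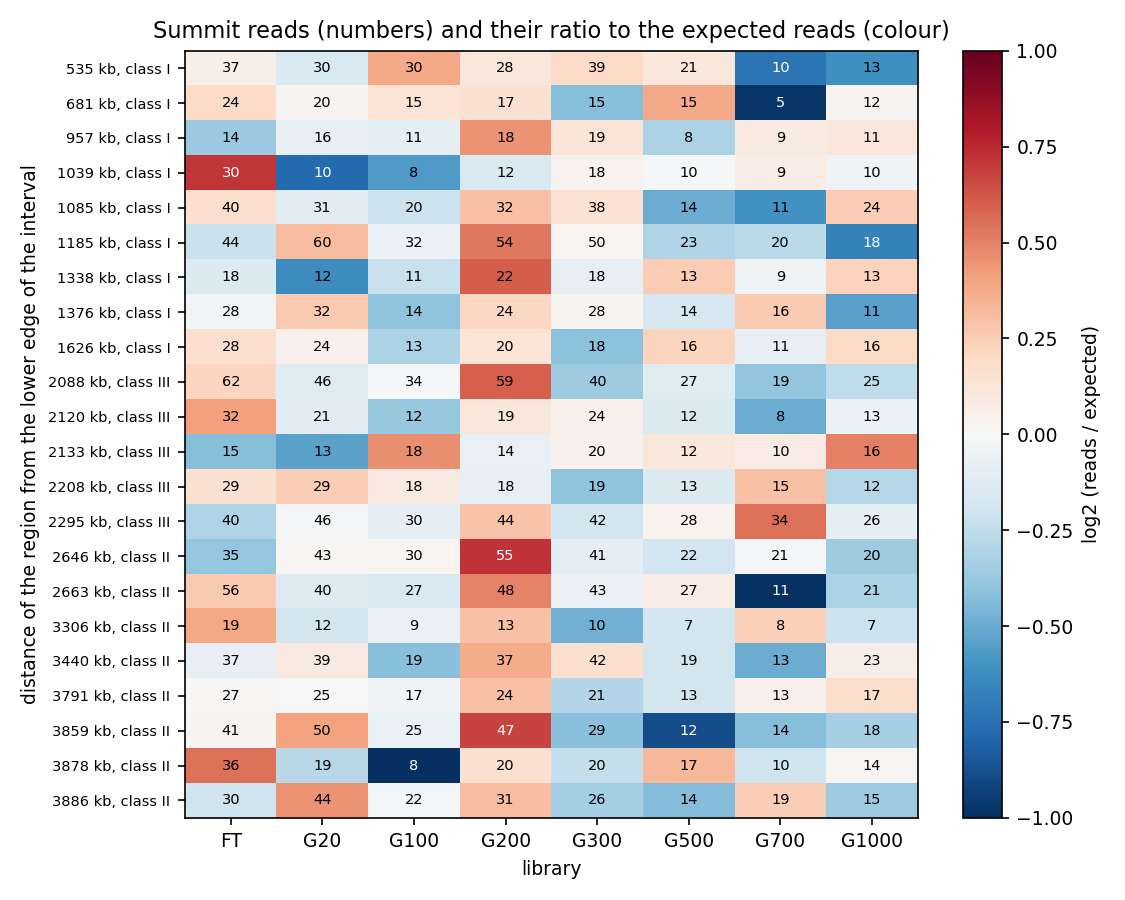
Summit reads in each library (columns) at the 22 MHC regions called in all 8 lists (rows, by distance from the lower edge of the interval), printed as numbers and coloured by log2 of the ratio to the expected reads. The G200 column is above 1 in 19 of 22 regions, and its highest ratio, 1.65, is that of the class II region at 2646 kb, with 55 reads.

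Most shared regions of the MHC had more reads in G200 than expected. The ratio of G200 was above 1 in 19 of the 22 regions, with a median of 1.22, where 44.3% of all tested regions of the series were above 1 and the median was 0.961. Summed over the 22 regions, G200 had 656 reads, 1.29 times the expected number (95% Poisson interval 1.19 to 1.39). The sum was 1.03 times the expected in FT (0.959 to 1.11), 1.01 in G20 (0.936 to 1.09), 0.934 in G100 (0.847 to 1.03), 0.924 in G300 (0.852 to 0.999), 0.929 in G500 (0.835 to 1.03), 0.903 in G700 (0.803 to 1.01) and 0.906 in G1000 (0.815 to 1.01). On 271 ordinary shared regions of the rest of chromosome 6, G200 had 0.917 times the expected reads (0.892 to 0.942). On 443 such regions of chromosomes 17, 19 and 22 it had 1.21 times (1.19 to 1.23). The MHC value of G200 lay on the side of those chromosomes and not of its own chromosome. Those chromosomes were picked after their values were seen, so the comparison is a description only. The sums have no replicate and no test, and the spread of G200 makes its interval too narrow.

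By class, G200 had 1.23 times the expected reads over 9 class I regions (95% Poisson interval 1.07 to 1.40), 1.22 times over 5 class III regions (1.03 to 1.43) and 1.39 times over 8 class II regions (1.23 to 1.56). The 3 intervals overlapped. In the other libraries the class sums ran from 0.843 (class I in G700) to 1.07 (class II in G20), and the 95% Poisson interval of each included 1. With each library scaled to its genome background in place of ordinary regions, G200 had 1.89 times the expected reads in class I, 1.88 in class III and 2.13 in class II, and FT was below 1 in each class.

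**Figure D5:**
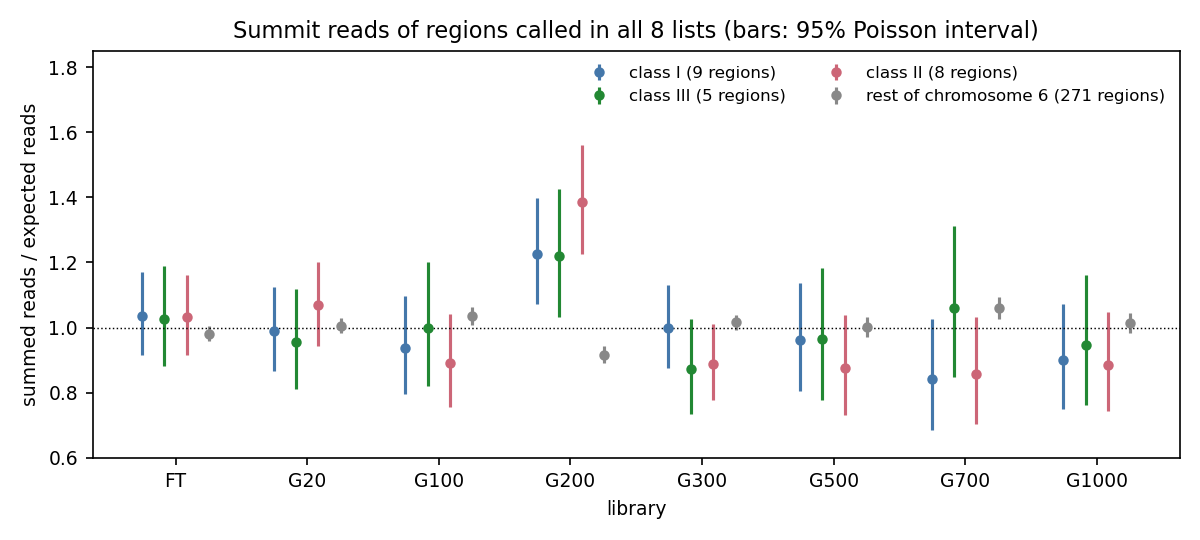
Summed summit reads over expected reads (points, with 95% Poisson intervals as bars) by library for the shared regions of each class interval and of the rest of chromosome 6. The 3 class values of G200 lie at 1.22 to 1.39, while its value for the rest of the chromosome is 0.917.

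Regions of each other list were also called in G200 more often in the MHC than over the series. G200 called 67.9% of all MHC regions, against 43.2% of all regions of the series. The excess was not particular to G200, as regions of each other list were also called more often in FT, in G100 and in G1000. The same held for calls in G500, where the shares of G200 regions were about equal (48.4% in both). For calls in G20 it held in all other lists but G1000 (83.3%, against 84.6%). For calls in G300 it held in all other lists but G200 (69.9%, against 70.1%). Of G20 regions, 85.9% were called in FT, against 74.8% over the series. Calls in G700 went the other way for most lists, with 31.3% of FT regions, against 32.0%. Of the 62 MHC regions called in G100, 59 (95.2%) were called in G200, against 69.2% over the series, and those 59 were 63.4% of the 93 regions of G200, against 57.2%. Likewise 65 of the 79 regions of G300 (82.3%) were called in G200, against 56.8% over the series, and they made up 69.9% of the regions of G200, against 70.1%. The share also called in G200 was 74.7% of FT regions, against 52.9% over the series, 82.4% of G20 regions, against 58.0%, and 91.8% of G500 regions, against 74.5%. It was 93.8% of G700 regions, against 79.4%, and 87.0% of G1000 regions, against 75.3%. As shares of the G200 regions, those called in FT made up 79.6%, against 75.4% over the series, and those called in G20 75.3%, against 70.5%. Those called in G500 made up 48.4% in both, those called in G700 32.3%, against 40.2%, and those called in G1000 50.5%, against 48.3%. Between G300 and G500, which do not involve G200, 45 of 49 regions of G500 (91.8%) were called in G300, against 84.0% over the series. They were 57.0% of the regions of G300, against 44.3%.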

How the data were processed

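ATAC-seq peak lists of 8 libraries were used, 1 per fraction. Bowtie2 2.2.6, MACS2 2.2.1 and HOMER were named, with the builds hg19 and mm10, per the submitters' processing notes; hg19 was taken from the sequence names. The sources used here give no caller parameters, read filters or transposase shift. Each library has its own deposited list, with a score (a whole number), a fold enrichment (ratio over local background), a −log10 p-value and a −log10 q-value for every peak. These are the authors' values, used to describe and rank peaks within a list.

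Depth is not listed. Summit reads were recovered by solving MACS2's fold and Poisson p for a whole number up to 3000, within 0.001 of the printed −log10 p. A single value was found for 99.3% to 100% of the peaks of a list, and for 552 of the 557 peaks of the interval. For a region, the highest value per library was used. Ordinary regions exclude 1 Mb beside the longest region-free stretch and 20 kb at chromosome ends. Scripts (Python 3.11.15, SciPy 1.17.1) were tested on simulated data. The simulated reads varied by counting alone, so the check of the read test does not cover the wider spread of G200 and FT. Intervals cover counting error only. The named regions are, per class interval, the 3 of all lists with the best mean rank, the widest, the strongest of 1 list, those called on 1 salt side alone and those passing the read test; stretches, bins, list pairs and the comparison with chromosomes 17, 19 and 22 were picked after their values were seen. The members and lists were chosen with earlier results of these data known. Alternatives were peak strength, list length, merging, scaling and leaving out G200 or FT. Promoter calls were not analysed, for want of an annotation in the build of the files.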

Additional observations from a re-analysis of the deposited data

How the results depend on the processing

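The number of regions depended on the peaks admitted. With peaks of −log10 q of at least 5 there were 88 regions, of which 39 were class I and 29 class II, and at equal list length (8102 peaks) there were 78, of which 35 were class I and 24 class II. Class III kept 20 and 19 of 28. The share in all 8 lists was 15.9% and 21.8%, against 12.1% and 18.0% over the series. The share of the FT list in the interval was 0.568% at equal length. The other shares stayed within their intervals, and G200 stayed highest under both. Asking for 100 bp to join peaks gave 139 regions. In the read test, scaling to the genome background gave 13 called tests in the interval, 10 of them of G200 (1187 regions called over the series). Leaving out G200 gave 0 (9 unadjusted, 45 regions over the series), and leaving out FT gave 0 (12 unadjusted, 85 over the series), with a ratio of 1.58 for the region called. Under background scaling the class sums of FT were 0.791, 0.783 and 0.788 and those of G200 1.89, 1.88 and 2.13 for class I, III and II. Summing pileups changed no class ratio beyond its interval. The causes were not tested. Promoter alternatives were not run. No paired analysis was possible because each fraction is 1 library. Reads at shared regions went down to 5 in G700, so a missing call there is not absence.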
